A study of Homo sapiens with 4 samples.

Results

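The genes of 4 classical cadherins (CDH1, CDH2, CDH3 and CDH5), 3 catenins (CTNNA1, CTNNB1 and CTNND1), 2 giant FAT cadherins (FAT1 and FAT2) and the adhesion molecule EPCAM were followed after a hairpin against p63 was expressed. They were taken by gene symbol, 10 of the 25369 genes in the deposited table. Poly(A) RNA was sequenced from H226, a human cell line from lung squamous cell carcinoma, engineered to express a short hairpin RNA when doxycycline is added. In 2 shp63 cultures the hairpin targeted p63, a transcription factor of basal epithelial cells, and in 2 shControl cultures it was non-targeting. Doxycycline was given to every culture, shControl included, at 1 µg/mL over 6 days, and the labels name 1 construct per group, so the hairpin and its target cannot be told apart.

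Classical cadherins are transmembrane proteins that bind the same cadherin on a neighbouring cell through calcium-dependent extracellular repeats. Their cytoplasmic tails bind p120 catenin, which keeps the cadherin at the surface, and beta-catenin, which joins alpha-catenin and through it actin. Beta-catenin released from this complex also acts as a transcriptional co-activator in WNT signalling. FAT cadherins are very large relatives with roles in planar polarity and growth control described first in Drosophila, and EPCAM is a surface molecule of simple epithelia and carcinomas that is unrelated to cadherins.

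The libraries held 51926832 to 53924761 counted reads, and replicates correlated at 0.997 or more across genes (log2 CPM, where CPM is the read count scaled to a common library size), against at most 0.962 between groups. TP63, the target, had 1596 and 1530 reads in the shp63 libraries and 7533 and 7364 reads in the shControl libraries. Of 10 basal and squamous markers, TP63 among them, 9 fell and KRT6A rose. Of all genes tested, 37.1% fell and 36.9% rose, by the calls defined below. The median log2 fold change of the 10 markers was -2.15. SFN, for example, had 56.2 CPM in shp63 and 255 CPM in shControl. The summed level of the 10 was 4340 and 4560 CPM in shp63 and 6580 and 6420 CPM in shControl. Most of that sum was KRT17, which fell less, with 3060 CPM in shp63 and 3900 CPM in shControl. Among 14901 genes that passed a low-count filter, 74.0% were called different, that is, had a Benjamini-Hochberg adjusted p below 0.05 in the quasi-likelihood test of edgeR. A call alone is therefore common in these libraries. SOX2, 1 of the 9 markers that fell, had 1 and 3 reads in shp63 and 14 and 11 reads in shControl. It passed this filter only through shControl, so its call could only have been a fall. All 10 genes passed the filter with at least 472 reads in every library.

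All 10 were called, 7 of them higher (36.9% of all genes were) and 3 lower (37.1%). The groups did not overlap for any of the 10, as for 86.4% of all genes: both shp63 libraries lay above shControl for 7 (42.8% of all genes) and below for 3 (43.6%). Against a 1.5-fold change, 5 of the 10 were called, where 22.7% of all genes were: CDH5, CDH2, EPCAM and CTNNA1 rose (12.7% of all genes) and FAT2 fell (10%). The median log2 fold change was 0.41 over the 10 and -0.01 over all genes tested. In bulk RNA, fewer cells of a type and less RNA per cell cannot be told apart. For any 1 gene, 2 against 2 cultures allow no p under 0.333 by exact permutation (two-sided), so the calls rest on the spread that the model shares across genes and measure only the spread between these cultures.

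**Figure D1:**
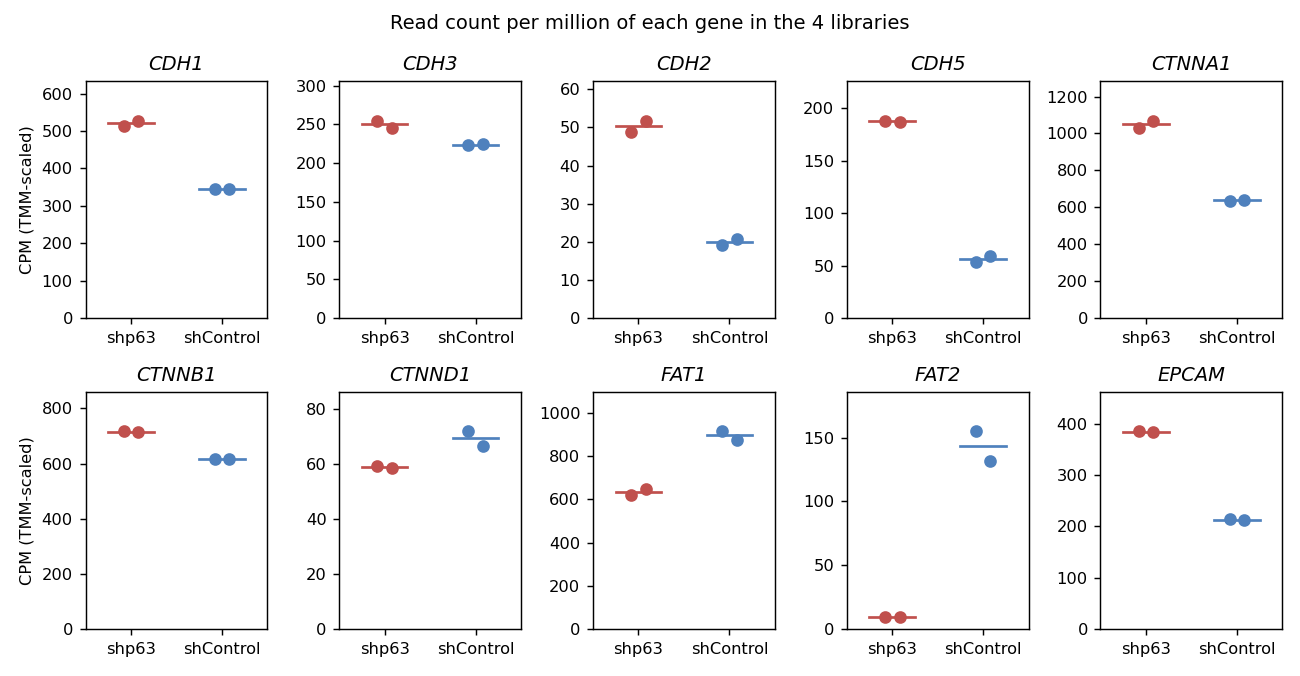
CPM (vertical axes, each from 0, TMM-scaled) of the 10 genes in the 2 shp63 and 2 shControl libraries, with points for libraries and lines for group means. The groups are apart in every panel, with FAT2 at 9.29 CPM in shp63 and 143 CPM in shControl and CDH3 at 251 CPM in shp63 and 224 CPM in shControl.

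CDH1 encodes E-cadherin, the main cadherin of epithelial adherens junctions (chromosome 16, 68771195 to 68869440, plus strand, GRCh37, here and below from GENCODE v44 lifted to that build). It had 513 and 528 CPM in shp63 and 345 CPM in both shControl libraries. E-cadherin transcript was thus higher in both shp63 cultures, with a fitted rise of 1.51-fold (log2 fold change 0.59, SE 0.031, 95% interval 0.53 to 0.66, adjusted p = 1.06e-13, edgeR). That size sits at the 1.5-fold line and was not called beyond it (adjusted p = 0.58, edgeR glmTreat).

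CDH3, the neighbouring gene on the same strand (chromosome 16, 68670092 to 68761371), encodes P-cadherin, which marks the basal layer of stratified epithelia. It had 255 and 246 CPM in shp63 and 223 and 225 CPM in shControl. The shp63 libraries were above the shControl libraries by 1.12-fold, a small difference (log2 fold change 0.16, SE 0.03, 95% interval 0.10 to 0.22, adjusted p = 5.29e-05, edgeR). Among all genes tested, 75% changed by as much or more in either direction. P-cadherin transcript rose while most basal markers, such as DSG3 (29.5 ± 0.657 CPM in shp63, 130 ± 3.11 CPM in shControl; SD, n = 2 each), fell.

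CDH2 encodes N-cadherin, the cadherin of neural, mesenchymal and mesothelial cells (chromosome 18, 25512843 to 25757910, minus strand). It had 48.8 and 51.8 CPM in shp63 and 19.3 and 20.7 CPM in shControl. Both shp63 libraries were more than double either shControl library, a 2.52-fold rise (log2 fold change 1.33, SE 0.046, adjusted p = 6.77e-17, edgeR). Of 4 mesothelial markers tested, MSLN, UPK3B and UPK1B were called higher and BNC1 lower, against 36.9% and 37.1% of all genes. The summed level of all 10 mesothelial markers was 679 and 685 CPM in shp63 and 415 and 441 CPM in shControl. Most of that sum was MSLN (330 CPM in shp63, 132 CPM in shControl) and UPK3B (303 CPM in shp63, 215 CPM in shControl). ITLN1, HAS1 and PDPN had 0 reads in every library and WT1 had at most 4. Of 4 fibroblast and mesenchymal markers tested 3 were called lower (COL1A1, ACTA2 and PDGFRB) and none higher, against 37.1% and 36.9% of all genes. PDGFRB had 5 and 4 reads in shp63 and 25 and 19 reads in shControl, and passed the low-count filter only through shControl. The sum of the 10 listed was 82.6 and 75.6 CPM in shp63 and 109 and 116 CPM in shControl, most of it COL1A1. DCN had 0 reads, and VIM, which encodes vimentin, had 0 to 7 reads per library. The part of these cell-type markers in the CDH2 result was not tested.

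CDH5 encodes VE-cadherin, known as the cadherin of endothelial junctions (chromosome 16, 66400593 to 66438687, plus strand). It had 188 and 187 CPM in shp63 and 53.9 and 59.5 CPM in shControl. That 3.31-fold rise was the largest rise among the 10 genes (log2 fold change 1.73, SE 0.04, adjusted p = 3.57e-19, edgeR), and 5.68% of all genes changed by as much or more. Of 10 endothelial markers 7 had at most 6 reads in any library (KDR, TEK, TIE1, ROBO4, EMCN, ERG and CLDN5). The summed level of the 10 was 8.53 and 8.5 CPM in shp63 and 8.31 and 7.89 CPM in shControl. The remaining 3 moved both ways. ESAM (260 and 253 reads in shp63, 120 and 117 reads in shControl) and PECAM1 (107 and 86 reads in shp63, 65 and 49 reads in shControl) rose, and VWF (62 and 71 reads in shp63, 267 and 242 reads in shControl) fell. The part of these markers in the CDH5 result was not tested.

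To set the 4 cadherins side by side, counts were divided by the length of each gene's canonical transcript (GENCODE v44 lifted to GRCh37, which may not be the annotation the authors used). Their summed level was 222 and 224 CPM per kb in shp63 and 140 and 142 CPM per kb in shControl. CDH1 made up 47.9% and 49.0% of that sum in shp63 and 51.2% and 50.5% in shControl, so E-cadherin transcript stayed the most abundant in all 4 libraries. CDH3 made up 25.8% and 24.7% in shp63, against 35.9% and 35.5% in shControl. CDH5 made up 20.8% and 20.5% in shp63, against 9.50% and 10.3% in shControl. The CDH2 share was 5.46% and 5.76% in shp63 and 3.43% and 3.63% in shControl.

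**Figure D2:**
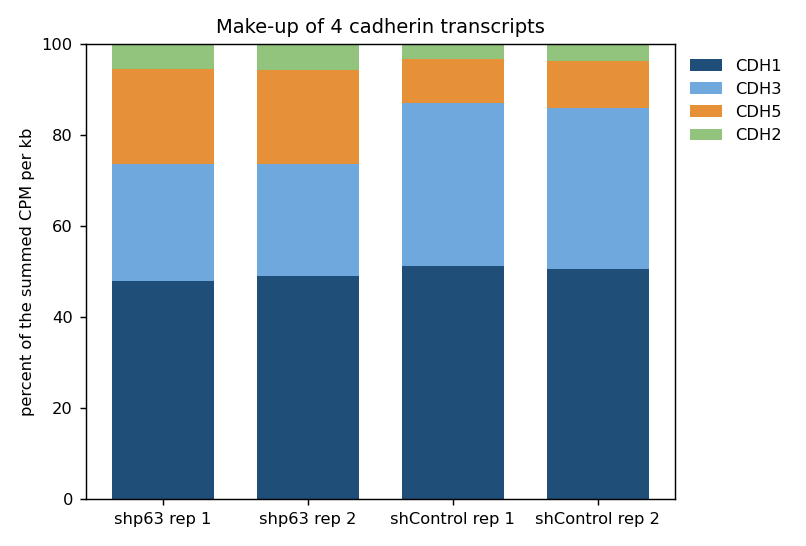
Stacked bars of the share (percent, from 0 to 100) that CDH1, CDH3, CDH5 and CDH2 take of their summed CPM per kb in each of the 4 libraries. The CDH5 share is 20.8% and 20.5% in shp63 and 9.50% and 10.3% in shControl, and the CDH3 share is smaller in shp63.

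Ratios of read counts within a library do not depend on how libraries are scaled. The CDH3 to CDH1 ratio was 0.498 and 0.466 in shp63 and 0.649 and 0.651 in shControl, a log2 difference of -0.43. The CDH5 to CDH1 ratio was 0.367 and 0.353 in shp63 and 0.156 and 0.172 in shControl, a log2 difference of 1.13. The CDH2 to CDH1 ratio was 0.0951 and 0.0981 in shp63 and 0.0559 and 0.0599 in shControl, a log2 difference of 0.74. The groups did not overlap in any of the 6 ratios computed among the 10 genes, and each had p = 0.333 in an exact two-sided permutation test (0.333 also after Benjamini-Hochberg adjustment over the 6), the smallest value that 2 against 2 libraries allow.

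Alpha-catenin, the link from the cadherin complex to actin, is encoded by CTNNA1 (chromosome 5, 137946656 to 138270723, plus strand). CTNNA1 had 1030 and 1070 CPM in shp63 and 633 and 642 CPM in shControl. Both shp63 libraries were above both shControl libraries, and the fitted rise was 1.64-fold (log2 fold change 0.72, SE 0.035, adjusted p = 2.62e-14, edgeR), which was called beyond 1.5-fold (adjusted p = 0.000552, edgeR glmTreat). With library totals in place of composition factors that second call was lost (log2 fold change 0.63, adjusted p = 0.112, edgeR glmTreat).

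CTNNB1, the beta-catenin gene (chromosome 3, 41236232 to 41301587, plus strand), had 717 and 715 CPM in shp63 and 617 and 615 CPM in shControl. It rose 1.16-fold (log2 fold change 0.22, SE 0.032, 95% interval 0.15 to 0.28, adjusted p = 2.49e-06, edgeR), and 67.1% of all genes changed by as much or more. Per read count CTNNB1 was 0.699 and 0.669 of CTNNA1 in shp63 and 0.974 and 0.957 of it in shControl. The alpha-catenin transcript thus gained on the beta-catenin transcript in both shp63 libraries.

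CTNND1, which encodes p120 catenin (chromosome 11, 57520715 to 57587018, plus strand), fell. It had 59.1 and 58.4 CPM in shp63 and 71.8 and 66.6 CPM in shControl, so the shp63 level was lower by 1.18-fold (log2 change -0.24, SE 0.044, adjusted p = 5.45e-05, edgeR). The ratio of CTNND1 to CTNNA1 reads was 0.0575 and 0.0546 in shp63 and 0.113 and 0.104 in shControl. The deposited table also lists TMX2-CTNND1, a readthrough gene by its name, with 0 and 1 reads in shp63 and 3 reads in each shControl library. The sources used here do not give how reads that fit both genes were counted, so the CTNND1 count may miss shared reads and its level is uncertain.

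**Figure D3:**
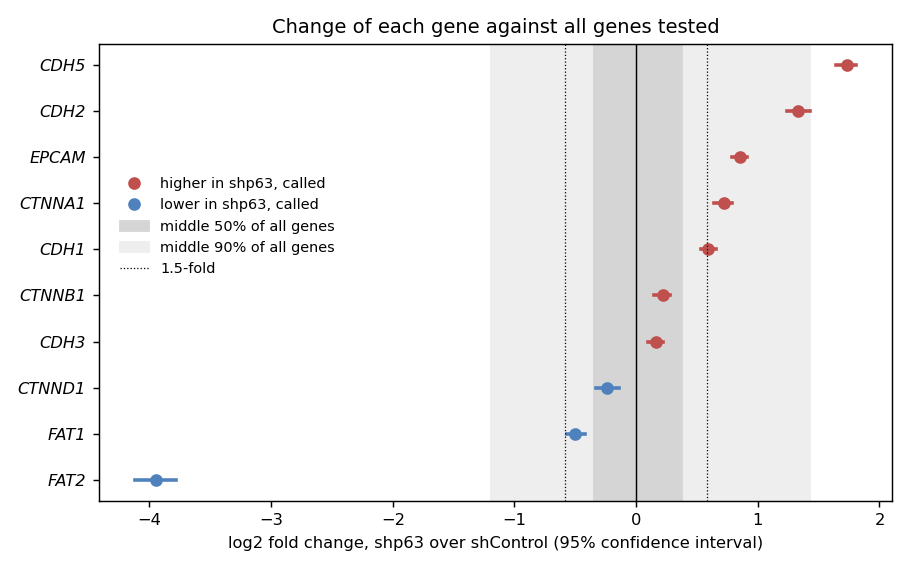
Log2 fold change (shp63 over shControl, horizontal axis) of the 10 genes with 95% confidence intervals from edgeR, over bands for the middle 50% and 90% of all genes tested. CDH5 (1.73) and FAT2 (-3.95) lie outside the wider band, and CDH3, CTNNB1 and CTNND1 lie inside the narrower one.

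The largest change of the 10 genes was in FAT2. This gene, encoding a giant cadherin found in squamous epithelium and keratinocytes (chromosome 5, 150883653 to 150970892, minus strand), had 477 and 472 reads in shp63 and 8587 and 7089 reads in shControl. That is 9.17 and 9.41 CPM in shp63 and 155 and 132 CPM in shControl. FAT2 fell 15.4-fold (log2 fold change -3.95, SE 0.078, 95% interval -4.12 to -3.78, adjusted p = 8.2e-13, edgeR), the 16th lowest fold change of 14901 genes. Relative to their mean, the shControl libraries differed more from each other than for the other 9 genes. Without the second shp63 library the fall was as large (log2 fold change -3.97) but was not called beyond 1.5-fold.

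FAT1, a broadly expressed FAT cadherin (chromosome 4, 187508948 to 187647876, minus strand), had 622 and 648 CPM in shp63 and 916 and 877 CPM in shControl. Both shp63 libraries were below both shControl libraries, and the fitted fall was 1.41-fold (log2 fold change -0.50, SE 0.035, adjusted p = 2.23e-11, edgeR) which was not called beyond 1.5-fold (adjusted p = 1, edgeR glmTreat). The FAT2 to FAT1 ratio of reads was 0.0147 and 0.0145 in shp63 and 0.169 and 0.150 in shControl, a log2 difference of -3.45.

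Promoter sequence of these genes is shown to set the gene that fell most beside its relative. RefSeq windows (GRCh38.p14) were found for 5 of the 10 genes (CDH2, CTNNA1, CTNNB1, FAT1 and FAT2), and the 250 bases before an annotated start are given, 5′ to 3′ on the gene's strand, with CG dinucleotides in capitals. For FAT1 the window of 1 of 2 annotated starts is printed.
FAT2, chr5:151591332-151591581, minus strand: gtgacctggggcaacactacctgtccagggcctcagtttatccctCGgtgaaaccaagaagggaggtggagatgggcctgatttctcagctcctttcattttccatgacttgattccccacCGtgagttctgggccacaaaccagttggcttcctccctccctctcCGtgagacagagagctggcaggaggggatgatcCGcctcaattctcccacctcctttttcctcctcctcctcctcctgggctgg
FAT1, chr4:186726697-186726946, minus strand: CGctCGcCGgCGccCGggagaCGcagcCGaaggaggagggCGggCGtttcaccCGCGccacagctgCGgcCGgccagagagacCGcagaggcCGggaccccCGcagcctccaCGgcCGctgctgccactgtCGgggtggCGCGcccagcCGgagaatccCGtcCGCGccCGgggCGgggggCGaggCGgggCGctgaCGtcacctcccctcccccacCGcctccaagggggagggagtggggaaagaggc

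The FAT2 window held 4 CG dinucleotides and 56.8% G or C, against 32 CG and 78.0% in the FAT1 window. Over 35116 RefSeq promoter windows of the same length the median was 11 CG and 58.0% G or C, and 29.3% of windows held fewer CG than FAT2 while 90.5% held fewer than FAT1. The printed FAT windows were searched on both strands for CACCTG, the E-box bound by SNAI and ZEB repressors, for the p53-family half-site and for TATAAA, and neither held a match. Of all windows 17.5% held CACCTG, 5.57% the half-site and 10.7% TATAAA.

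EPCAM (chromosome 2, 47572297 to 47614740, plus strand) had 385 and 384 CPM in shp63 and 214 and 212 CPM in shControl. The replicates were within 2 CPM of each other and the groups far apart, a 1.80-fold rise (log2 fold change 0.85, SE 0.029, 95% interval 0.79 to 0.91, adjusted p = 6.67e-17, edgeR). It was called beyond 1.5-fold (adjusted p = 7.98e-09, edgeR glmTreat).

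Ordered per kb of canonical transcript, the shp63 libraries had CTNNA1 highest at 279 ± 8.21 CPM per kb, then EPCAM (248 ± 0.347), CTNNB1 (196 ± 0.324), CDH1 (108 ± 2.26), CDH3 (56.3 ± 1.46), CDH5 (46.2 ± 0.263), FAT1 (43.0 ± 1.21), CDH2 (12.5 ± 0.54), CTNND1 (8.81 ± 0.0652) and FAT2 (0.632 ± 0.0118; SD, n = 2 each). No neighbours in that order had overlapping libraries. The place of CTNND1 is uncertain in both groups, since its count may miss reads shared with TMX2-CTNND1. In shControl the order was CTNNA1 (170 ± 1.66), CTNNB1 (168 ± 0.397), EPCAM (138 ± 0.852), CDH1 (71.7 ± 0.127), FAT1 (60.7 ± 1.85), CDH3 (50.4 ± 0.227), CDH5 (14.0 ± 0.973), CTNND1 (10.4 ± 0.544), FAT2 (9.75 ± 1.11) and CDH2 (4.98 ± 0.254). There CTNND1 and FAT2 overlapped, and CTNNA1 and CTNNB1 lay within about the spread of CTNNA1. Dividing by all annotated exons placed EPCAM above CTNNA1 in both groups (158 against 119 CPM per kb in shp63, 87.7 against 72.2 in shControl) and CTNNB1 below CDH1, so the order among these genes depends on the transcript length used.

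Genes related to these 10 were then described from lists, none of which was tested as a set. Their counts stand beside 36.9% of all genes called higher, 37.1% called lower and a median log2 fold change of -0.01 over all genes. Of 18 other classical and type II cadherin genes 7 passed the filter, 2 rose and 4 fell (median log2 fold change -0.34). CDH11, known from mesenchymal cells, rose 6.37-fold to 11.9 ± 0.839 CPM in shp63, against 1.87 ± 0.0668 CPM in shControl (SD, n = 2 each). CDH19 had 31 and 30 reads in shp63 and 5 reads in each shControl library, and passed the low-count filter only through shp63. The falls included CDH13, the membrane-anchored T-cadherin gene (22.5 ± 0.00378 CPM in shp63, 48.5 ± 1.77 CPM in shControl), and the sparsely read CDH8 (3.33-fold) and CDH10 (3.35-fold).

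Of 6 other catenin genes tested 5 were called lower and 1 higher, against 37.1% and 36.9% of all genes (median log2 fold change -0.36). PKP4, an armadillo protein of the p120 group, fell 1.65-fold and CTNNAL1, an alpha-catenin relative, fell 1.78-fold. JUP, which encodes gamma-catenin of desmosomes and adherens junctions, fell to 377 CPM in shp63, against 466 CPM in shControl (adjusted p = 8.8e-09, edgeR). CTNNBIP1, an inhibitor of beta-catenin and TCF binding, was called higher by 1.15-fold, but not with DESeq2 (adjusted p = 0.052, DESeq2) or with library totals (adjusted p = 0.0911, edgeR).

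Among 20 nectin and adherens junction plaque genes 11 were higher and 6 lower (median log2 change 0.11). Nectins, which form junctions alongside cadherins, divided. PVRL3 rose 3.37-fold (77.7 ± 0.798 CPM in shp63, 23.1 ± 2.02 CPM in shControl; SD, n = 2 each) and PVRL2 rose 1.99-fold, while PVRL1 fell 1.66-fold to 249 ± 3 CPM in shp63, against 413 ± 2.46 CPM in shControl. The LIM protein gene AJUBA fell 2.52-fold, and SHROOM3, a regulator of apical actin, rose 1.67-fold. CBLL1, encoding an E3 ligase of E-cadherin, fell 1.22-fold.

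Of 13 tested planar polarity genes linked to FAT cadherins 9 were called lower and 2 higher, against 37.1% and 36.9% of all genes (median log2 fold change -0.63, against -0.01 over all genes). FJX1, the counterpart of a Drosophila kinase that acts on Fat and Dachsous, fell 3.29-fold to 7.28 ± 0.281 CPM in shp63, against 24.0 ± 1.31 CPM in shControl (SD, n = 2 each). FZD6 fell 2.55-fold and VANGL2 fell 2.44-fold, both core polarity genes. PRICKLE2 rose 1.63-fold, and CELSR1 was called higher by 1.25-fold but not without the second shp63 library (adjusted p = 0.082, edgeR). The FAT4 fall was 1.28 CPM in shp63 against 2.57 CPM in shControl, and FAT3 had 14 to 25 reads per library and was not called (adjusted p = 0.0912, edgeR).

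Of 16 genes around EPCAM 12 were called higher and 3 lower, against 36.9% and 37.1% of all genes (median log2 fold change 0.80, against -0.01 over all genes). Of the 16, 11 were called beyond 1.5-fold, against 22.7% of all genes. CLDN7, a claudin that binds EPCAM, had 469 CPM in shp63 and 236 CPM in shControl. SPINT1, an inhibitor of the protease matriptase, rose 3.05-fold (956 ± 39.3 CPM in shp63, 313 ± 1.45 CPM in shControl; SD, n = 2 each), and ST14, the matriptase gene, had 857 CPM in shp63 and 409 CPM in shControl. Of the gamma-secretase genes, whose product cuts EPCAM within the membrane, NCSTN rose 2.53-fold while APH1A was called 1.06-fold lower, though not with DESeq2 (adjusted p = 0.0573, DESeq2). FHL2, which binds the released EPCAM domain, rose 2.53-fold. CD9, a tetraspanin gene, fell 1.71-fold. The sheddase gene ADAM17 fell 1.13-fold, while ADAM10, another sheddase gene of the list, rose 1.88-fold.

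In the beta-catenin destruction complex 2 of 12 tested genes were higher and 5 lower, against 36.9% and 37.1% of all genes (median log2 fold change -0.02). None of the 12 was called beyond 1.5-fold, against 22.7% of all genes, and 7 were called at all, against 74.0%. AMER1 fell 1.52-fold, AXIN1 1.2-fold and APC 1.21-fold, while BTRC, an adaptor of the ubiquitin ligase, rose 1.18-fold and the sparsely read APC2 rose 1.78-fold. Of 14 tested TCF and LEF factor and beta-catenin target genes 3 rose and 7 fell (median -0.09). NOTUM, 1 of the 7, had 2 and 4 reads in shp63 and 21 and 12 reads in shControl. It passed the low-count filter only through shControl, so its call could only have been a fall. DKK1, a secreted WNT inhibitor, rose 2.00-fold and BCL9L rose 1.42-fold, while MYC fell 4.17-fold and CCND1 fell 1.31-fold. AXIN2, a common readout of the pathway, had 15 and 7 reads in shp63 and 3 and 2 reads in shControl and was not tested, and LEF1 had at most 1 read.

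Transcription factors tied to the cadherin switch moved both ways, with 8 of 16 tested called higher and 5 lower, against 36.9% and 37.1% of all genes (median log2 fold change 0.12). SNAI2, a repressor of CDH1, fell 1.98-fold to 9.67 ± 0.141 CPM in shp63, against 19.1 ± 0.302 CPM in shControl (SD, n = 2 each), and ZEB1, another, had 45 and 44 reads in shp63 and 16 and 24 reads in shControl. TWIST1 had 0 reads in every library. Among epithelial factors ELF3 rose 2.27-fold, KLF4 rose 2.90-fold and KLF5 rose 1.33-fold, and the splicing regulator ESRP1 fell 1.41-fold. GRHL3, an epithelial grainyhead factor, had 6 and 5 reads in shp63 and 47 and 40 reads in shControl. It passed the low-count filter only through shControl, so its call could only have been a fall. TCF3 fell 1.34-fold.

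**Figure D4:**
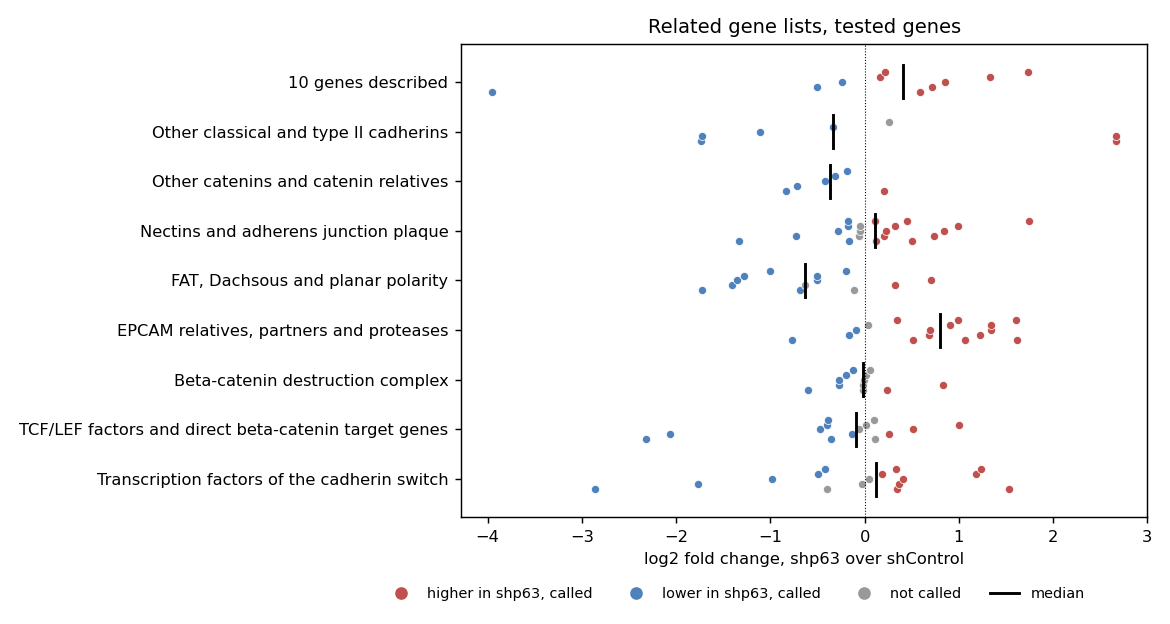
Log2 fold change (shp63 over shControl, horizontal axis) of each tested gene in the 10 genes described and in 8 related lists, with called and uncalled genes in separate colours and a black bar at each median. The medians run from -0.63 for planar polarity genes to 0.80 for genes around EPCAM.

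Leukocyte markers were higher in the same shp63 libraries, with a summed level of 85.3 and 81.6 CPM in shp63 and 16.3 and 14.8 CPM in shControl. Most of that sum was CD14 (43.9 CPM in shp63, 6.17 CPM in shControl) and CD68 (31.6 CPM in shp63, 6.62 CPM in shControl). Of 5 tested 4 were called higher (CD14, CD68, CSF1R and LYZ) and ITGAM lower, against 36.9% and 37.1% of all genes. LYZ had 33 and 21 reads in shp63 and 1 read in each shControl library. It passed the low-count filter only through shp63, so its call could only have been a rise. MS4A1 had 0 reads, and the pan-leukocyte gene PTPRC had 8 and 6 reads in shp63 and 6 and 4 reads in shControl. Their part in the rises of CDH5, CDH2, EPCAM and CTNNA1 was not tested.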

How the data were processed

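Poly(A) RNA of 4 H226 libraries, 2 shp63 and 2 shControl, was sequenced from a stranded mRNA kit, per the labels' protocols. Reads were aligned to GRCh37 (hg19) with TopHat2 2.0.13 and counted per gene with HTSeq 0.6.1, per the submitters' processing notes and the series' design text. Which annotation and strand option HTSeq was run with is not given in the sources used here, and values of antisense and overlapping genes are uncertain for that reason. The authors deposited raw counts of reads, 1 whole number per gene symbol and library, without normalization.

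Counts were tested with edgeR 4.0.16 (R 4.3.3) with TMM factors, filterByExpr (minimum count 10, minimum total 15) and a robust quasi-likelihood fit of group over all 4 libraries. P-values were adjusted over 14901 genes by the Benjamini-Hochberg method, with calls under 0.05, and glmTreat tested against a 1.5-fold change. CPM values use the TMM factors. Standard errors are the log2 fold change over the root of its F statistic. The common biological coefficient of variation was 0.0308 on 2 residual degrees of freedom, with a median prior of 18.8, and the code was tested on simulated data. The submitters call the cultures independent biological replicates, and replicate counts differed by more than sampling noise (chi-square per degree of freedom 3.6 in shp63 and 3.3 in shControl). No batch is labelled.

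The 10 genes and the 13 lists of 176 genes were chosen with earlier results of these data known, and no list was tested as a set. The rule named at most 3 called genes in either direction from a list, those with the lowest adjusted p, or all tested genes where a list had 5 or fewer. JUP, FAT3, FAT4, CLDN7, ST14, ADAM10, AXIN2, LEF1, ZEB1, TWIST1, GRHL3, KRT17 and marker genes with few reads were named after their values were seen. Alternatives were other scaling, other filters, DESeq2 1.42.0, limma-voom (limma 3.58.1), the replicate number as a block and leaving out each library.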

Additional observations from a re-analysis of the deposited data

How the results depend on the processing

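All 10 genes kept their direction and their call at an adjusted p under 0.05 in each of the 12 alternatives (RLE factors, library totals, no filter, 1 CPM in 2 libraries, DESeq2, limma-voom, both replicate blocks and each library left out). The log2 fold change of FAT2 ranged from -4.07 to -3.83, and that of CDH3, the smallest, from 0.07 to 0.19 with an adjusted p of at most 0.0288. Beyond 1.5-fold, the count of the 10 genes called lower ranged from 0 to 1 over the libraries left out, and was 0 without the second shp63 library, where FAT2 was not called. The cause was not tested. The count called higher was 3 with library totals, where CTNNA1 lost its call, and 4 in the other alternatives in which the 1.5-fold test was run (all but DESeq2 and limma-voom). Library totals moved the median log2 fold change of all genes to -0.10, against -0.01 with TMM factors. Called genes ranged from 9554 with DESeq2 to 11387. With the replicate number as a block, 10858 genes and all 10 of those described were called, so the block changed none of their calls. The labels do not say that a number marks a shared batch. The deviations of same-numbered libraries correlated at -0.112, and with crossed numbers, an alternative chosen after seeing the data, 11387 genes and the same count of 10 were called. A filter of 1 CPM left 3 called leukocyte markers in place of 5. Transcript length by all annotated exons was also chosen after seeing the data. Leaving out a library leaves 1 sample in a group, which is assumed to vary like the other group. Genes with few reads in both groups did not pass the low-count filter and were not tested.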
